A study of Mus musculus with 20 samples.

Results

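The mitochondrial chromosome of the mouse was read here through 37 of the 58395 counted rows, namely every row placed on chromosome MT. Liver RNA was sequenced from 20 individual mice in 4 groups of 5: anti-CD40 without antibiotics, control without antibiotics, anti-CD40 with antibiotics (ABX), and control with ABX. CD40 is a receptor on antigen-presenting cells. Sources used here do not give the antibody's dose, timing or clone, which antibiotics were used, what control mice received, or the strain, sex and age. The rows were laid out on a human annotation while the reads were aligned to the mouse genome, so each row was read as an interval of mouse chrM (mm10) and named after the mouse genes beneath it. All 37 rows had counts; together they held 34055928 of 123867788 counts, or 27.49%. They run from 577 to 16023, touch 36 of the 37 mouse mitochondrial genes (all but mt-Tf, the transfer RNA for phenylalanine) and lie over 1 gene in 23 cases, over 2 or more genes (at most 7) in 12, and over no gene in 2.

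Mitochondrial DNA is a small circle transcribed from both strands as long precursors, which are cut at the transfer RNAs that stand between the genes. It encodes 13 proteins of the respiratory chain and ATP synthase, 2 ribosomal RNAs and 22 transfer RNAs, and every other mitochondrial protein comes from nuclear genes. Because neighbouring genes share a precursor, the steady-state amounts of their RNAs depend largely on processing and stability. Hepatocytes are rich in mitochondria, and mitochondrial RNA is a large part of liver RNA.

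The 4 stretches of mouse chrM shown here carry results described further on; each is written 5′ to 3′ on the plus strand, from the GENCODE M21 transcripts of mm10. The first, chrM:6334-6453 in mt-Co1, is shown because the rows that lie wholly beyond it up to 10766 hold few counts: capitals mark the part that lies inside a nuclear copy of the mitochondrial genome. The second, chrM:12138-12336, is the stretch of mt-Nd5 under 3 neighbouring small rows that were lower in anti-CD40 mice, with the middle row (12207 to 12265) in capitals. The third, chrM:577-647, is the stretch of mt-Rnr1 under the row that rose most in anti-CD40 over control mice, both with ABX, relative to the mitochondrial total. The last, chrM:13522-13595, shows where mt-Nd5, on the plus strand, and mt-Nd6, on the minus strand, end over each other; capitals mark the 14 bases of both genes, which the counting without strand cannot divide.
mt-Co1 edge: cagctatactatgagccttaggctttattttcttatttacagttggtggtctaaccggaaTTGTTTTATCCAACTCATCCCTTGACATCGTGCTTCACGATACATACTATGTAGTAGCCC
mt-Nd5 rows: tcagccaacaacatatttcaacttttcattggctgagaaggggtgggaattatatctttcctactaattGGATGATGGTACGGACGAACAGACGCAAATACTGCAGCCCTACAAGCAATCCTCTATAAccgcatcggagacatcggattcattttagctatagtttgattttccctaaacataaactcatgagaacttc
mt-Rnr1 row: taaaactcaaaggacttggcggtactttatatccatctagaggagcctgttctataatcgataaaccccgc
mt-Nd5 and mt-Nd6 ends: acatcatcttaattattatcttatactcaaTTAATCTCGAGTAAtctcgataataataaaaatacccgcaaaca

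One library stands apart and touches the results. Mouse 8, a control mouse without ABX, had a mitochondrial share of 22.4%, against 28.9% to 31.1% in the other controls without ABX, and its haptoglobin row took 6.86% of counts, against 1.26% to 1.72% in those controls. Haptoglobin is a plasma protein that liver makes in the acute-phase response. Results that rest on the controls without ABX are therefore given with and without mouse 8 where it moves them. Libraries held 5053014 to 7618736 counts. The plate position in the labels follows the groups closely: controls with ABX all sat in plate column 3 and anti-CD40 mice with ABX all in column 4, so column and antibody cannot be told apart between them; anti-CD40 and control mice without ABX shared only column 4, with 1 and 2 mice. Hepatocyte marker transcripts were abundant in every library. Summed over the 5 of 12 markers measured, they reached 71820 to 138600 CPM in anti-CD40 mice and 221000 to 313000 CPM in control mice. CPM here are counts scaled to library totals that were adjusted by a scaling on all genes tested (TMM). They are not plain shares of all counts. No neutrophil or erythroid marker of the lists was measured, which took a row over that gene alone and enough counts to pass the expression filter.

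Rows inside a nuclear copy of the mitochondrial genome on chromosome 1 held few counts. The 7 pseudogenes on chromosome 1 (Gm29216, Gm28661, Gm10925, Gm28437, Gm28438, Gm10222 and Gm28439, chr1:24611535-24616197) copy parts of chrM between 6394 and 11042, and their 4133 aligned bases had 0 mismatches to it. The 11 rows that lie from 7446 to 10766, inside this copy, held 87504 counts in all 20 libraries, 0.257% of the mitochondrial counts. They had 3.90 to 69.7 counts per bp, against 34.3 to 8941 per bp (median 1847) for the other 26 rows. A fragment that aligns to both places need not be counted in either. Values for mt-Co2, mt-Atp8, mt-Atp6, mt-Co3, mt-Nd3, mt-Nd4l and the start of mt-Nd4 can therefore not be read as the levels of those transcripts. The row over mt-Co1 to mt-Co2 (chrM:5904-7445) lies partly before the copy and partly in it, and how its counts divide between them is not in a row total. In its first 490 bp 33.1% of all 50-base stretches occur in an annotated nuclear transcript, the chromosome 2 pseudogene Gm13340 among them, and from 6394 on 90.3% do. The row from mt-Nd4 to mt-Nd5 (chrM:10760-12137) also begins inside the copy, and 18.3% of its 50-base stretches occur in such a transcript. Both long rows are counted here among the 26 rows outside the copy.

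**Figure D1:**
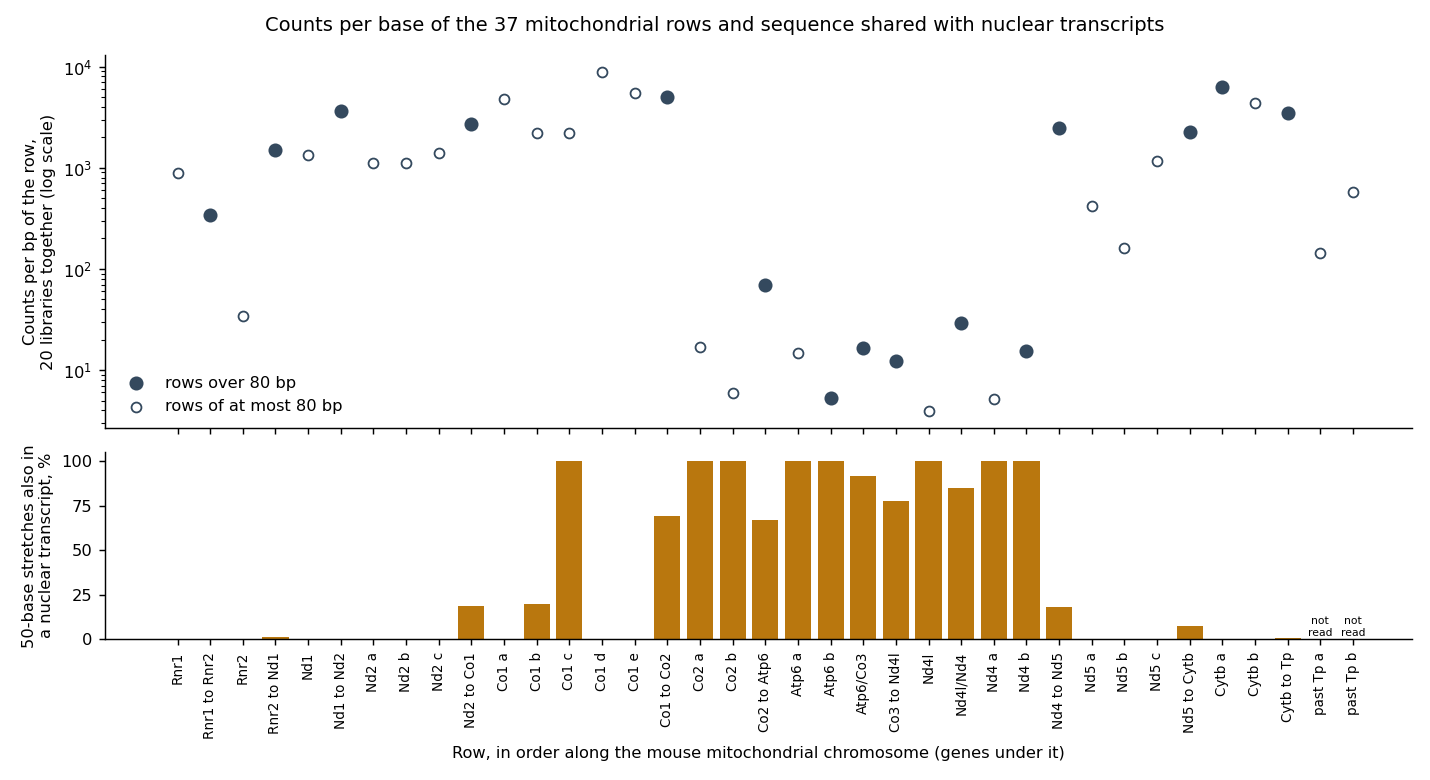
Counts per bp of each of the 37 rows (upper panel, log axis, 20 libraries summed) and percent of its 50-base stretches found unchanged in a nuclear transcript (lower panel), in order along chrM. The 11 rows from Co2 a to Nd4 b, which lie inside the chromosome 1 copy, have 3.90 to 69.7 counts per bp; the 2 rows past mt-Tp have no sequence in the transcripts used.

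The remaining rows differed widely per bp. The densest row was a stretch of mt-Co1, the catalytic subunit of cytochrome c oxidase, at 5761 to 5826, with 8941 counts per bp. The row over mt-Cytb alone (14149 to 14673), the cytochrome b subunit of complex III, had 6275 per bp, and the long row over mt-Co1 to mt-Co2 had 5022 per bp. Rows over mt-Nd1 and mt-Nd2, subunits of NADH dehydrogenase (complex I), had 1112 to 3623 per bp, and the 3 small mt-Nd5 rows, also complex I, had 161 to 1155 per bp. Rows in mt-Rnr1 and mt-Rnr2, the ribosomal RNAs, had 34.3 to 889 per bp where they lie in no protein gene. The 66 bp and 68 bp rows beyond mt-Tp, which lie in the noncoding control region between mt-Tp and mt-Tf, had 144 and 583 per bp. The 10 rows with at least 1% of the mitochondrial counts each held 94.32% of them, led by mt-Co1 to mt-Co2 with 22.7%, mt-Nd5 to mt-Cytb (12337 to 14148) with 12.2% and mt-Cytb to past mt-Tp (14747 to 15887) with 11.6%. How small rows count fragments longer than themselves was not tested. The file headers name no option for fragments that overlap several rows, so such a fragment need not be counted in any of them. Small rows such as 12207 to 12265 and 577 to 647 directly adjoin other rows. Their counts may therefore depend on fragment length as well as on transcript amount. The 22 rows of at most 80 bp took 7.27% ± 0.251 of the mitochondrial counts in anti-CD40 and 7.30% ± 0.110 in control mice without ABX. With ABX they took 7.65% ± 0.210 in anti-CD40 and 7.07% ± 0.183 in control mice (SD, n = 5 each).

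The mitochondrial share of all counts was lower in anti-CD40 livers. Without ABX it was 23.7%, 25.7%, 24.3%, 25.2% and 25.1% in the 5 anti-CD40 mice (mean 24.8% ± 0.796, SD), against 31.1%, 29.7%, 22.4%, 30.6% and 28.9% in the 5 control mice (28.5% ± 3.53). The groups overlap through mouse 8 alone; the difference of means was -3.75 percentage points, and -5.29 without that mouse. With ABX it was 25.8%, 23.6%, 23.9%, 22.3% and 20.9% in anti-CD40 mice (23.3% ± 1.86), against 33.5%, 29.5%, 31.2%, 35.1% and 31.6% in control mice (32.2% ± 2.16). These groups do not overlap, and their difference was -8.87 percentage points. A share of all counts has no test here, since it sums over the chosen rows.

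The share also depends on the other rows in the total, and the haptoglobin row moved most in it. That row (886 bp of Hp, with Dhodh, Pkd1l3 and Txnl4b) took 18.7% ± 1.39 of counts in anti-CD40 and 2.52% ± 2.43 in control mice without ABX, and 17.6% ± 0.592 in anti-CD40 and 1.24% ± 0.144 in control mice with ABX (SD, n = 5 each). With this row taken out of the total, an alternative chosen after seeing the data, the mitochondrial share without ABX was 30.5% ± 0.840 in anti-CD40 and 29.2% ± 2.99 in control mice, a difference of 1.252 percentage points with the groups overlapping. That sign rested on mouse 8: without it the control mean was 30.51% ± 0.924 (n = 4) and the difference -0.038 percentage points, again with overlap. With ABX it was 28.3% ± 2.095 in anti-CD40 and 32.6% ± 2.15 in control mice, a difference of -4.29, and the groups overlapped. The albumin row moved the other way from haptoglobin, with 6.75% in anti-CD40 and 15.1% in control mice without ABX, and 8.88% in anti-CD40 and 17.6% in control mice with ABX. With the 10 largest nuclear rows out of the total, the differences were -5.49 without ABX (-6.77 without mouse 8) and -11.6 with ABX. The size of the difference thus depended on the denominator in both settings, and without ABX its sign did too, through mouse 8.

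**Figure D2:**
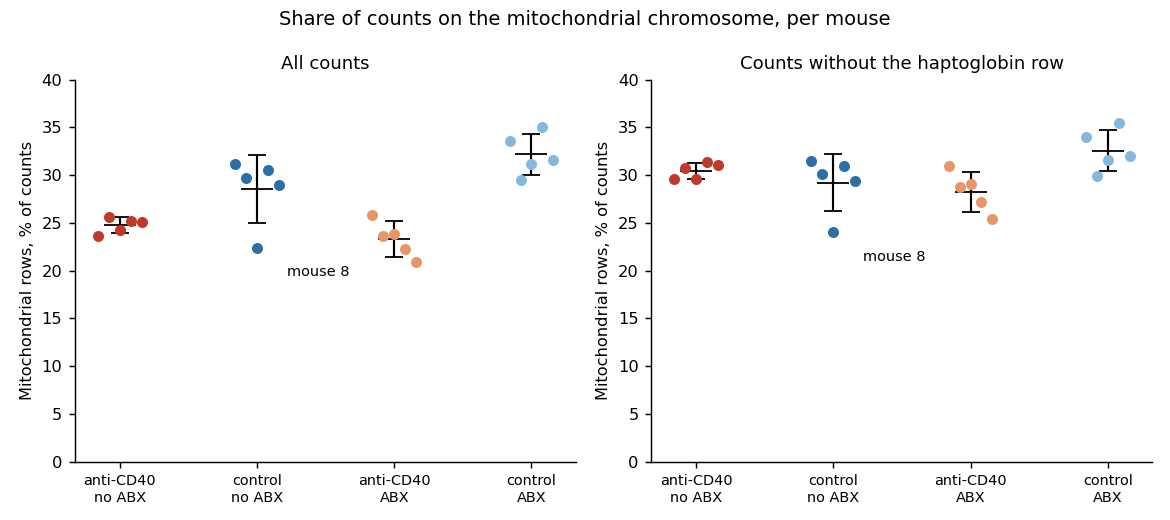
Percent of counts on the 37 mitochondrial rows in each mouse (points), with group mean and SD (bars, n = 5), against all counts (left) and against counts without the haptoglobin row (right). Without ABX the anti-CD40 group lies at 23.7% to 25.7% on the left, above mouse 8 (22.4%) and below the other controls, and within the range of the controls on the right.

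The mitochondrial shares of mice with ABX overlapped those of mice without. In control mice the means were 32.2% with ABX and 28.5% without, a difference of 3.64 percentage points with overlapping groups, and of 2.103 without mouse 8. In anti-CD40 mice they were 23.3% with ABX and 24.8% without, a difference of -1.48, also with overlap. The anti-CD40 difference with ABX minus that without ABX was -5.12 percentage points, and -3.59 without mouse 8.

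Row by row, scaled on all counted rows (TMM), mitochondrial rows fell in anti-CD40 livers. Without ABX 24 of the 37 rows were called lower and 0 higher, beside 28.1% of all 5432 tested rows called lower and 29.6% called higher in edgeR's quasi-likelihood test at an adjusted p of 0.05. With ABX 30 of 37 were lower and 0 higher, beside 24.9% of all rows lower and 25.6% higher. The 11 rows inside the chromosome 1 copy held 5 of the lower calls without ABX and 7 with ABX. The other 26 rows held 19 and 23. The median log2 fold change of the mitochondrial rows was -0.53 without ABX and -0.82 with ABX, while the median of all rows was 0.02 and 0.01. All 24 rows called lower without ABX were also called lower with ABX. The comparisons share no mouse, but the share of all tested rows called the same way in both was not counted. In bulk liver, fewer cells of a type and less RNA per cell cannot be told apart.

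Among the 26 rows outside the chromosome 1 copy, the small rows in the complex I genes mt-Nd5 and mt-Nd2 and the row from mt-Nd5 to mt-Cytb stood lowest without ABX. With ABX the small row in mt-Nd1 and the row from mt-Nd1 to mt-Nd2 stood with them. With each mouse left out in turn, that longer row ran from -1.184 to -1.052 with ABX, and mt-Rnr2 to mt-Nd1 from -1.152 to -0.973. Without ABX other rows over parts of these genes fell less, among them mt-Nd4 to mt-Nd5, which was not called. With ABX mt-Nd4 to mt-Nd5 also fell less, from -0.766 to -0.647 with each mouse left out in turn. The mt-Nd5 row at 12207 to 12265 had log2 fold changes of -1.48 ± 0.12 without ABX and -1.30 ± 0.12 with ABX (standard error), and the 3 small mt-Nd2 rows ran from -0.88 to -0.74 without ABX and from -1.18 to -1.10 with ABX. The row over mt-Nd5, mt-Nd6 and the start of mt-Cytb changed by -0.90 ± 0.12 (adjusted p = 8.04e-07) without ABX and by -1.12 ± 0.12 (adjusted p = 2.69e-08) with ABX. The row over mt-Co1 to mt-Co2 changed by -0.21 ± 0.10 (adjusted p = 0.085, not called) without ABX and by -0.45 ± 0.10 (adjusted p = 0.000696) with ABX. Without mouse 8 that row was also called lower without ABX, at -0.27 (adjusted p = 0.0189). The rows called in neither comparison included the row in mt-Rnr1 (0.22 and -0.03) and both control-region rows (0.01 and 0.21 without ABX, -0.20 and -0.19 with ABX).

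These signs are relative to the scaling. On plain library totals the median of all rows itself shifted to 0.27 without ABX and 0.36 with ABX, and the split was 3 higher and 19 lower without ABX and 1 higher and 22 lower with ABX. On library totals without the haptoglobin row it shifted to 0.53 and 0.62, and the split was 10 higher and 10 lower without ABX and 5 higher and 15 lower with ABX. The shares of all rows called higher or lower on either kind of total were not counted. These splits can therefore not be set against the whole table. The mitochondrial median minus the median of all rows was -0.55 (TMM), -0.56 (totals) and -0.55 (totals without the haptoglobin row) without ABX, and -0.83 under all 3 with ABX.

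Fewer rows were called for ABX than for anti-CD40. In control mice 6 of 37 rows were higher with ABX than without and 0 lower, beside 3.04% of all rows called higher and 2.67% lower. The median log2 fold change of the 37 rows was 0.25, against 0.00 for all rows. The 6 called rows were those from mt-Rnr1 to mt-Rnr2 (0.41), in mt-Rnr2 (0.54), mt-Nd4 to mt-Nd5 (0.38), both mt-Cytb rows (0.45 and 0.48) and mt-Cytb to past mt-Tp (0.47). Only 3 of these calls, the mt-Cytb rows and mt-Cytb to past mt-Tp, held with plate column as a term, and the count was also 3 when any of mice 3, 4 or 5 (ABX) or 7, 8 or 10 (no ABX) was left out. In anti-CD40 mice 1 row was higher with ABX (mt-Nd5, 12207 to 12265, 0.48) and 1 lower (mt-Nd1, 3230 to 3304, -0.41), beside 7.75% of all rows higher and 6.22% lower; the mt-Nd1 call was lost without mouse 14, 15 or 18. The anti-CD40 effect itself differed between ABX and no ABX for 2 rows, mt-Nd1 at 3230 to 3304 (-0.61 ± 0.17, adjusted p = 0.0327) and mt-Cytb to past mt-Tp (-0.56 ± 0.16, adjusted p = 0.0331), both more negative with ABX, beside 3.85% of all rows higher and 2.96% lower. The count was 0 without mouse 4, 10, 14 or 15, 1 without mouse 5, 13, 16, 18, 19 or 20, and 3 to 6 without mouse 2, 9, 11, 12 or 17; the mt-Cytb to past mt-Tp call was lost without 4, 5, 10, 13, 14, 15, 16, 19 or 20 (-0.57 to -0.49).

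The balance between the rows was then measured against the mitochondrial total of each library, which takes out the share of mitochondrial RNA and any scaling on nuclear rows. A fold change here says how a row moved relative to the other mitochondrial rows, and cannot say that a row did not change. In both settings the first 2 ribosomal RNA rows, the mt-Co1 to mt-Co2 row and both control-region rows took more of the mitochondrial counts in anti-CD40 mice, while the row from mt-Nd1 to mt-Nd2, the 3 small mt-Nd2 rows, the 3 small mt-Nd5 rows and the mt-Nd5 to mt-Cytb row took less. Without ABX 6 rows were higher and 12 lower of 37, and with ABX 10 were higher and 11 lower. Of all 5432 rows 60.8% were called on this scale without ABX (2648 higher, 654 lower) and 76.3% with ABX (3759 higher, 388 lower); their median log2 fold changes were 0.46 and 0.83, so the share of all rows called includes the difference between nuclear and mitochondrial counts. Relative to the mitochondrial total 5 rows were higher and 8 lower in both comparisons, and 0 went opposite ways. How many of all tested rows did so on this scale was not counted.

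**Figure D3:**
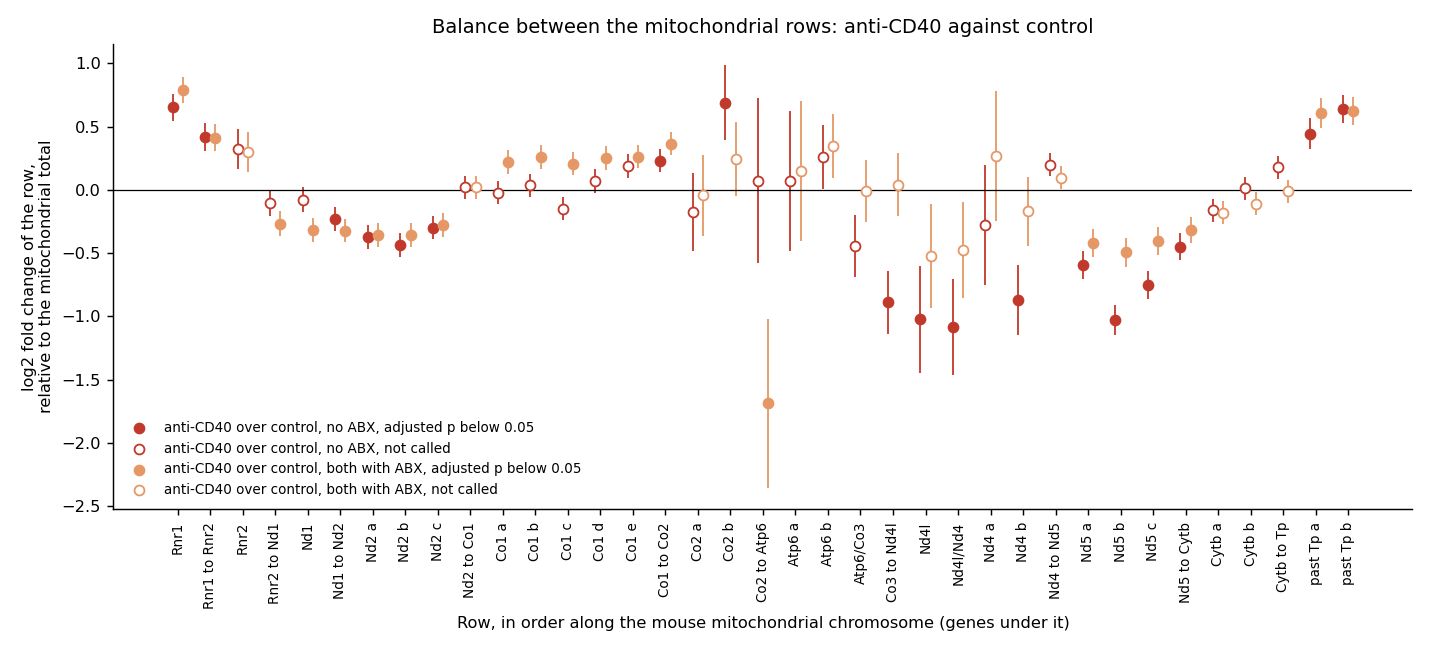
log2 fold change, anti-CD40 over control, of each row relative to the mitochondrial total, with standard error (bars), without ABX (red) and with ABX (orange); filled points have an adjusted p below 0.05. Along the chromosome the values are above 0 at mt-Rnr1, below 0 from mt-Nd1 to mt-Nd2 and above 0 at mt-Co1 to mt-Co2. They are below 0 at the small mt-Nd5 rows and mt-Nd5 to mt-Cytb, and above 0 at the rows wholly past mt-Tp. The bars are widest for the rows inside the chromosome 1 copy.

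Of the 3 rows that lie in ribosomal RNA genes without a protein gene, 2 rose against the rest in both settings. mt-Rnr1 encodes the RNA of the small mitochondrial ribosomal subunit, and its row at 577 to 647 took 0.215%, 0.230%, 0.274%, 0.221% and 0.279% of mitochondrial counts in anti-CD40 mice without ABX, against 0.151%, 0.156%, 0.169%, 0.140% and 0.1599% in control mice without ABX. With ABX the values were 0.233%, 0.253%, 0.224%, 0.245% and 0.254% in anti-CD40 mice, against 0.120%, 0.132%, 0.144%, 0.148% and 0.156% in control mice. Every anti-CD40 mouse lay above every control mouse in both settings. The log2 fold change was 0.65 ± 0.11 (adjusted p = 3.93e-06) without ABX and 0.79 ± 0.11 (adjusted p = 1.2e-07) with ABX. The neighbouring row over mt-Rnr1, mt-Tv and mt-Rnr2 (648 to 1601) rose by 0.42 ± 0.11 (adjusted p = 0.00128) and 0.41 ± 0.11 (adjusted p = 0.00107). Within mt-Rnr2 the small row at 1602 to 1670 (0.32 and 0.30) was not called, and the row from the rest of mt-Rnr2 into mt-Nd1 (1671 to 3229) was lower with ABX (-0.27, adjusted p = 0.0159) and not called without (-0.11). That call was lost under TMM over the mitochondrial rows (-0.21, adjusted p = 0.0635) and against the mitochondrial total without its largest row (-0.16, adjusted p = 0.147). That long row took 6.43%, 6.92%, 8.19%, 6.404% and 6.16% in anti-CD40 mice without ABX, against 7.66%, 7.34%, 7.42%, 7.14% and 7.18% in control mice without ABX. In ABX-treated mice it took 6.19%, 5.86%, 5.9995%, 5.58% and 5.596% in anti-CD40 mice, against 6.79%, 6.68%, 6.96%, 7.71% and 7.03% in control mice. The groups overlapped without ABX and were apart, with anti-CD40 mice lower, with ABX. It covers both an end of a ribosomal RNA and the first part of a complex I gene, which its counts do not separate.

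The row joining mt-Nd1 to mt-Nd2 and the 3 small rows in mt-Nd2 fell against the rest in both settings. The row from mt-Nd1 to mt-Nd2 (3307 to 4262), with the transfer RNAs mt-Ti, mt-Tq and mt-Tm between them, took 9.49%, 9.52%, 11.1%, 9.45% and 8.71% in anti-CD40 mice without ABX, against 11.3%, 11.2%, 11.1%, 11.5% and 11.5% in control mice without ABX. Under ABX the row took 8.40%, 8.30%, 8.54%, 8.45% and 8.43% in anti-CD40 mice, against 9.94%, 10.4%, 10.6%, 10.98% and 10.8% in control mice. The groups did not overlap in either setting, though mouse 18 of the anti-CD40 group without ABX (11.08%) lay close to mouse 8 of its controls (11.14%). The log2 fold change was -0.23 ± 0.09 (adjusted p = 0.0326) without ABX, a call that was lost when any of mice 7, 9, 10, 16, 17, 19 or 20 was left out (-0.24 to -0.20), and -0.32 ± 0.09 (adjusted p = 0.00287) with ABX. The 3 small rows inside mt-Nd2 were lower in both settings, from -0.43 to -0.30 without ABX and from -0.36 to -0.28 with ABX, and no single mouse left out ended any of these calls. With ABX the call at 4402 to 4469 was lost against the mitochondrial total without its largest row (-0.17, adjusted p = 0.111) and with no filter on low counts (adjusted p = 0.0521); the call of the row from mt-Nd1 to mt-Nd2 without ABX was lost under both of these (adjusted p = 0.137 and 0.0554) and under TMM over the mitochondrial rows (adjusted p = 0.0759). The small row inside mt-Nd1 was lower with ABX (-0.32, adjusted p = 0.0041; -0.21, adjusted p = 0.0502, without the largest row in the total) and not called without (-0.08).

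The row from mt-Nd2 to the start of mt-Co1 (4470 to 5511), with 5 transfer RNA genes between them, took 8.0003%, 8.64%, 9.05%, 8.85% and 8.73% in anti-CD40 mice without ABX, against 8.34%, 8.51%, 8.45%, 8.63% and 8.72% in control mice without ABX. With ABX it took 7.88%, 7.75%, 8.18%, 8.403% and 8.33% in anti-CD40 mice, against 7.78%, 8.01%, 7.93%, 7.84% and 8.396% in control mice. The groups overlapped in both settings. Its log2 fold change was 0.02 ± 0.09 in both settings and was not called (adjusted p = 0.853 without ABX and 0.836 with ABX).

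The mt-Co1 to mt-Co2 row, the largest of the 37, rose against the rest. It took 25.3%, 24.7%, 23.9%, 24.7% and 26.4% of mitochondrial counts in anti-CD40 mice without ABX, against 20.4%, 21.3%, 22.01%, 21.8% and 21.1% in control mice without ABX. In ABX-treated mice it took 26.1%, 26.3%, 25.5%, 26.6% and 26.6% in anti-CD40 mice, against 21.1%, 20.4%, 19.8%, 20.2% and 20.4% in control mice. The groups were apart in both settings by more than the spread within them, with means of 25.01% ± 0.910 in anti-CD40 and 21.3% ± 0.644 in control mice without ABX, and 26.2% ± 0.470 in anti-CD40 and 20.4% ± 0.473 in control mice with ABX (SD, n = 5 each). The test gave 0.23 ± 0.09 (adjusted p = 0.0285) without ABX and 0.36 ± 0.09 (adjusted p = 0.000691) with ABX; without mouse 7, 10, 16 or 20 the value without ABX lost its call (adjusted p = 0.0552, 0.0581, 0.052 and 0.0772).

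The 5 small rows inside mt-Co1 (5512 to 5891) did not all follow the long row. With ABX 5 of 5 were higher in anti-CD40 mice, from 0.21 to 0.26, and without ABX 0 of 5 were called, from -0.15 to 0.19. With no filter on low counts 3 of the 5 calls with ABX were lost, at 5512 to 5579 (adjusted p = 0.113), 5587 to 5655 (0.0619) and 5657 to 5729 (0.16). The densest of them, at 5761 to 5826, took 1.69%, 1.89%, 1.64%, 1.81% and 1.90% in anti-CD40 mice without ABX, against 1.68%, 1.67%, 1.66%, 1.79% and 1.71% in control mice without ABX, which overlap. Under ABX the row took 1.98%, 1.83%, 1.85%, 1.997% and 1.91% in anti-CD40 mice, against 1.65%, 1.67%, 1.58%, 1.59% and 1.54% in control mice, which do not. The row next to it, at 5826 to 5891, took 1.06%, 1.17%, 1.09%, 1.2463% and 1.26% in anti-CD40 mice without ABX, against 0.999%, 1.02%, 1.05%, 1.05% and 1.002% in control mice without ABX. With ABX it took 1.19%, 1.12%, 1.15%, 1.2174% and 1.21% in anti-CD40 mice, against 1.07%, 1.001%, 0.911%, 0.967% and 0.963% in control mice. Anti-CD40 mice lay above control mice in both settings, by a small margin without ABX.

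Of the 5, the row at 5657 to 5729 lies wholly in sequence that Gm13340 also holds; it was the row with the weakest call with ABX (0.21, adjusted p = 0.0401), lost when any of mice 1, 3, 4, 5, 13 or 14 was left out (0.19 to 0.21). The call at 5512 to 5579 (0.22, adjusted p = 0.0315) was lost without mouse 3, 13 or 14 (0.20 to 0.21), and the row at 5826 to 5891 was called higher without ABX once mouse 8 was left out (0.19, adjusted p = 0.0409). A test of the difference between the 2 anti-CD40 effects called 0 of the 5, with adjusted p-values of 0.0519 (5657 to 5729) to 0.715 in edgeR's test.

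**Figure D4:**
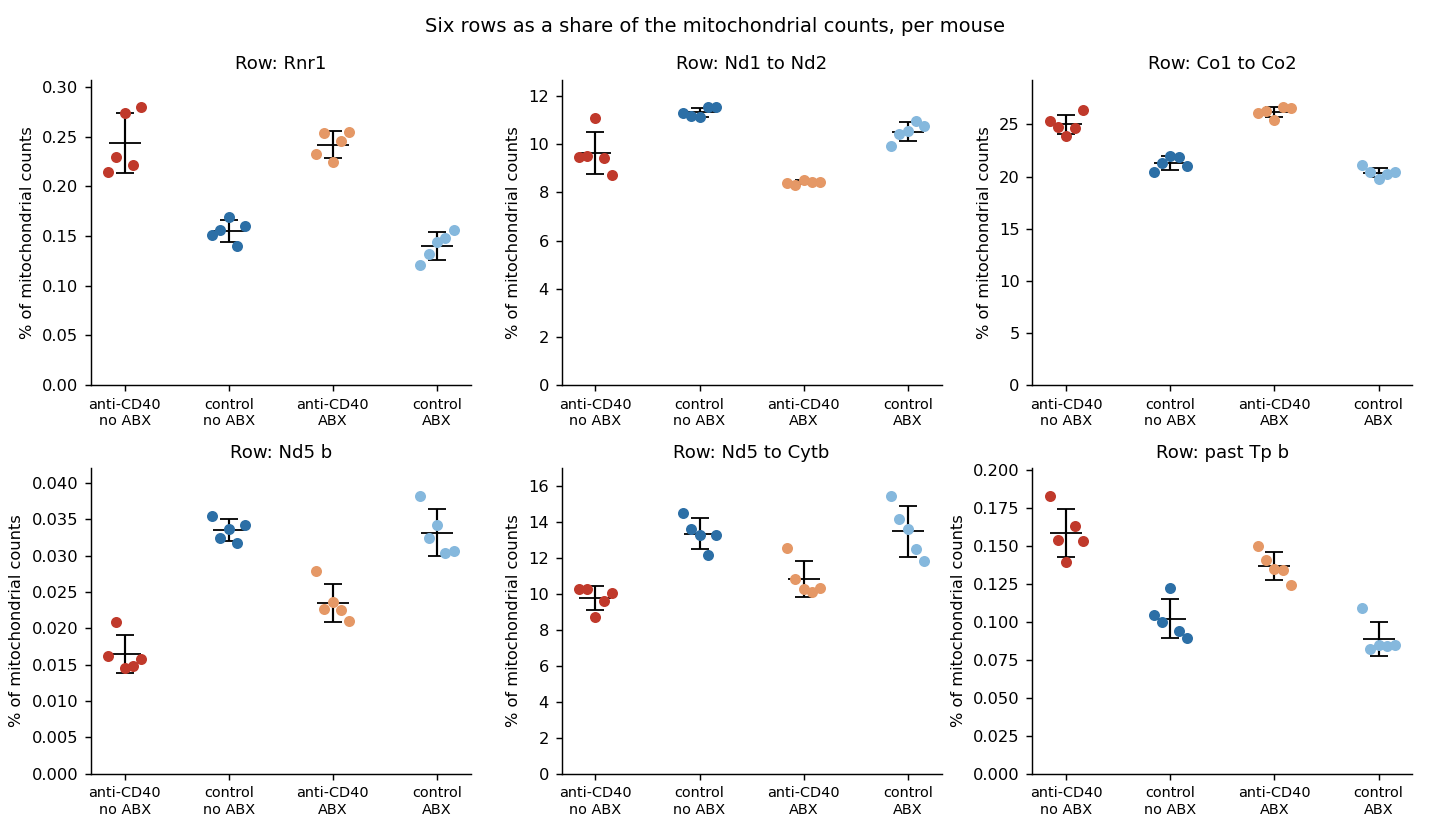
Percent of the mitochondrial counts on 6 rows in each mouse (points), with group mean and SD (bars, n = 5), each axis from 0. The mt-Rnr1, mt-Co1 to mt-Co2 and past mt-Tp rows are higher and the mt-Nd5 row at 12207 to 12265 is lower in every anti-CD40 mouse than in every control mouse of the same ABX status.

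Among the 26 rows outside the copy, the 3 small mt-Nd5 rows moved furthest down. Longer rows over parts of mt-Nd5 fell less (12337 to 14148) or had values above 0 (10760 to 12137), as given below. The middle small row, shown in capitals above, took 0.0162%, 0.0209%, 0.0145%, 0.0148% and 0.0158% in anti-CD40 mice without ABX, against 0.0355%, 0.0324%, 0.0337%, 0.0318% and 0.0343% in control mice without ABX. In ABX-treated mice it took 0.0279%, 0.0227%, 0.0237%, 0.0225% and 0.0210% in anti-CD40 mice, against 0.0382%, 0.0325%, 0.0342%, 0.0304% and 0.0307% in control mice. The groups were apart in both settings, and anti-CD40 mice without ABX all lay below those with ABX. The log2 fold change was -1.03 ± 0.12 (adjusted p = 8.71e-09) without ABX and -0.49 ± 0.12 (adjusted p = 0.00035) with ABX. The difference between these effects was 0.53 ± 0.16 (adjusted p = 0.0248), the 1 of 37 rows called beside 18.2% of all rows; it was not called without mouse 18 (0.49, adjusted p = 0.0525) or mouse 19 (0.50, adjusted p = 0.0514), nor with no filter on low counts (adjusted p = 0.0986). The small rows on either side changed by -0.59 and -0.75 without ABX and by -0.42 and -0.40 with ABX, all called.

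The long row over the rest of mt-Nd5, mt-Nd6, mt-Te and the first bases of mt-Cytb (12337 to 14148) took 10.3%, 10.3%, 8.69%, 9.61% and 10.05% in anti-CD40 mice without ABX, against 14.5%, 13.6%, 13.3%, 12.1% and 13.3% in control mice without ABX. Under ABX the row took 12.6%, 10.8%, 10.3%, 10.1% and 10.3% in anti-CD40 mice, against 15.4%, 14.1%, 13.6%, 12.5% and 11.8% in control mice. The groups were apart without ABX and overlapped with ABX through mouse 11. It changed by -0.45 ± 0.10 (adjusted p = 0.00045) without ABX and by -0.32 ± 0.10 (adjusted p = 0.00736) with ABX. The call with ABX was lost under TMM over the mitochondrial rows (-0.26, adjusted p = 0.0521) and against the total without its largest row (-0.21, adjusted p = 0.0776). mt-Nd6 is the 1 protein gene transcribed from the other strand, and its part in this row was not tested.

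Relative to the mitochondrial total, no row over mt-Cytb was called in either setting apart from the long row it shares with mt-Nd5. The row over mt-Cytb alone (14149 to 14673) took 8.61%, 9.21%, 8.42%, 8.85% and 8.24% in anti-CD40 mice without ABX, against 9.42%, 9.696%, 9.82%, 9.83% and 9.66% in control mice without ABX. With ABX it took 9.09%, 8.99%, 9.97%, 9.43% and 9.19% in anti-CD40 mice, against 10.1%, 10.5%, 10.8%, 10.6% and 10.8% in control mice. No mouse overlapped between the groups, yet the log2 fold changes of -0.16 ± 0.09 (adjusted p = 0.128) and -0.18 ± 0.09 (adjusted p = 0.0717) were not called. Groups were apart for 16 rows without ABX (6 higher, 10 lower) and 21 with ABX (11 higher, 10 lower), beside 41.6% and 58.6% of all rows on this scale. Between ABX and no ABX they were apart for 5 rows in control mice and 4 in anti-CD40 mice, beside 12.6% and 6.89% of all rows.

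The row from mt-Cytb past mt-Tp took 12.9%, 11.3%, 12.01%, 12.6% and 12.01% in anti-CD40 mice without ABX, against 10.4%, 10.7%, 10.5%, 11.2% and 10.8% in control mice without ABX. In ABX-treated mice it took 10.99%, 12.6%, 11.8%, 11.8% and 12.02% in anti-CD40 mice, against 11.4%, 11.8%, 12.1%, 12.1% and 12.2% in control mice. Anti-CD40 mice lay above control mice without ABX, and the groups overlapped with ABX. The row from mt-Nd4 to mt-Nd5, past the transfer RNAs mt-Th, mt-Ts2 and mt-Tl2, took 10.8%, 10.5%, 10.2%, 11.1% and 10.9% in anti-CD40 mice without ABX, against 9.51%, 9.33%, 9.04%, 9.35% and 9.49% in control mice without ABX. Under ABX the row took 9.796%, 10.7%, 10.8%, 10.4% and 10.6% in anti-CD40 mice, against 9.22%, 9.65%, 9.76%, 9.89% and 10.4% in control mice. Here too anti-CD40 mice lay above control mice without ABX, and the groups overlapped with ABX. The log2 fold change of the row from mt-Cytb past mt-Tp was 0.18 ± 0.09 without ABX and -0.01 ± 0.09 with ABX, and mt-Nd4 to mt-Nd5 was 0.20 ± 0.09 and 0.10 ± 0.09; neither was called, though both were called higher without ABX when mouse 8 was left out (0.17, adjusted p = 0.0441, and 0.19, adjusted p = 0.0271). Against the mitochondrial total without its largest row both were also called higher without ABX (0.25, adjusted p = 0.0257, and 0.27, adjusted p = 0.0149), and mt-Nd4 to mt-Nd5 with ABX as well (0.205, adjusted p = 0.0487); under TMM over the mitochondrial rows mt-Nd4 to mt-Nd5 was called without ABX (0.23, adjusted p = 0.0458).

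The 2 rows that lie wholly in the control region rose against the rest. The row from mt-Cytb past mt-Tp also reaches into that region, with 465 of its 1141 bp, and was called in neither setting in the main fit. The row at 15956 to 16023 took 0.183%, 0.154%, 0.139%, 0.163% and 0.153% in anti-CD40 mice without ABX, against 0.104%, 0.10%, 0.122%, 0.0937% and 0.0892% in control mice without ABX. With ABX it took 0.150%, 0.141%, 0.135%, 0.134% and 0.124% in anti-CD40 mice, against 0.109%, 0.0818%, 0.0850%, 0.0842% and 0.0845% in control mice. All anti-CD40 mice lay above all control mice in both settings. Its log2 fold changes were 0.64 ± 0.11 and 0.62 ± 0.11 (adjusted p = 1.24e-05 for both), and the row next to it (15888 to 15953) changed by 0.44 ± 0.12 and 0.61 ± 0.12. The pair held 39644 and 9494 counts in all libraries.

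The rows inside the chromosome 1 copy held 5 of the 18 calls without ABX (1 higher, 4 lower) and 1 of the 21 with ABX (lower), so outside it 5 rows were higher and 8 lower without ABX and 10 higher and 10 lower with ABX. These rows hold few counts. mt-Nd4l at 9991 to 10058, with 265 counts in all, had a log2 fold change of -1.02 without ABX (adjusted p = 0.0355), and of -0.52 without mouse 8 (adjusted p = 0.249); that call was also lost without mouse 7, 16, 17 or 18. The call at 10059 to 10404 (-1.08) was lost without mouse 6 or 7, and the higher call at 7518 to 7585 (0.69) without mouse 6, 9, 10, 17 or 18; both were lost with no filter on low counts (adjusted p = 0.0596 and 0.125). The row over mt-Co2 to mt-Atp6 (7586 to 8269) reached 0.707% in mouse 3, a control mouse with ABX, 0.285% in mouse 2, 0.268% in mouse 17 and 0.238% in mouse 7, against 0.0461% to 0.104% in the other mice. Its value with ABX, -1.69, became -0.79 without mouse 3 (adjusted p = 0.222), and it was not called without mouse 11, 14 or 15 or with no filter on low counts (adjusted p = 0.0824) either.

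Plate column as a term left little to compare. Without ABX such a fit rests on 1 anti-CD40 mouse and 2 control mice of column 4, so only its effect sizes are given. With ABX its step from column 3 to column 4 comes from the control mice without ABX, mouse 8 among them. Its calls with ABX were therefore not tested within a column. With the term, 8 of 37 rows were called with ABX. Of these, 6 had been called before: mt-Rnr1, mt-Rnr1 to mt-Rnr2, 2 of the small mt-Nd2 rows and both control-region rows. Whether lost calls reflect column or the fewer mice compared was not tested. The mt-Co1 to mt-Co2 row was not among the calls with ABX in edgeR's test (0.35, adjusted p = 0.0843). Nor was the mt-Nd5 to mt-Cytb row (-0.20, adjusted p = 0.377). Without ABX their values were 0.24 and -0.30. As shares, the same column 4 mice without ABX gave the mt-Co1 to mt-Co2 row 25.3% in the anti-CD40 mouse against 21.5% in the 2 control mice. The mt-Nd5 to mt-Cytb row took 10.3% in the anti-CD40 mouse against 12.7% in the control mice. No column held anti-CD40 and control mice with ABX.

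Few rows differed in balance between ABX and no ABX. In control mice 0 of 37 rows were called in edgeR's test, beside 20.7% of all rows called. Of the 37, 1 had an unadjusted p under 0.05, a threshold at which all rows were not counted. In anti-CD40 mice 2 rows were higher with ABX, mt-Nd5 at 12207 to 12265 (0.52 ± 0.12, adjusted p = 0.00503) and mt-Co1 at 5657 to 5729 (0.31 ± 0.09, adjusted p = 0.0292), and mt-Nd1 at 3230 to 3304 was lower (-0.37 ± 0.10, adjusted p = 0.0158), beside 7.93% of all rows. The mt-Co1 call was lost without mouse 13, 14, 18, 19 or 20 (0.29 to 0.31), under TMM over the mitochondrial rows (adjusted p = 0.0616) and with no filter on low counts (adjusted p = 0.11), and the mt-Nd1 call without mouse 14 or 18 (-0.34 and -0.30). Within plate column 4, the only column the 2 groups share, 5 mice with ABX stood against 1 without. There the rows changed by 0.54, 0.19 and -0.31, and no call was read from them.

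Nuclear genes that serve mitochondrial RNA and respiration were measured only in small part. A gene enters where a human exon interval happens to lie over it alone and its counts pass the expression filter. Of all 2200 genes tested, 31.8% were called higher and 28.8% lower without ABX, and 26.6% higher and 24.9% lower with ABX. Of 17 genes of mitochondrial DNA transcription and replication 2 were measured: Tfb2m, the factor that opens mitochondrial promoters for the RNA polymerase, was lower by -0.85 ± 0.10 without ABX and -0.82 ± 0.10 with ABX, and Top1mt, a mitochondrial topoisomerase, was called in neither. Of 28 genes of mitochondrial RNA processing and stability 3 were measured. Grsf1, which binds RNA in mitochondrial granules, was lower in both settings (-0.64 ± 0.08 and -0.50 ± 0.08). Elac2, which cuts the 3′ ends of transfer RNAs, was lower without ABX (-0.39 ± 0.09), and Tbrg4, an RNA stability factor of the FASTK family, was lower with ABX (-0.21 ± 0.08).

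Respiratory chain genes of the nucleus were lower wherever they were measured. Of 38 genes of complexes II to V, 3 were measured and 3 were lower in both settings: Cyc1, cytochrome c1, by -1.20 ± 0.09 and -1.09 ± 0.09, with Uqcrfs1, the iron-sulfur protein of complex III, and Atp5c1, a subunit of ATP synthase, between -0.78 and -0.58. Their summed level was 590 to 829.2 CPM in anti-CD40 and 1011 to 1367 CPM in control mice without ABX, and 701.9 to 807.5 CPM in anti-CD40 and 1277 to 1489 CPM in control mice with ABX. Of 36 complex I genes only Ndufs7 was measured, at -0.49 ± 0.09 without ABX and -0.50 ± 0.09 with ABX. Of 49 large-subunit genes of the mitochondrial ribosome 5 were measured, and 1 was higher without ABX (Mrpl21, 0.78) and 1 lower with ABX (Mrpl23, -0.40). Of 14 regulators of mitochondrial biogenesis 4 were measured: Nrf1 was higher (0.41 and 0.36) and Gabpa lower (-0.49 and -0.20) in both settings.

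**Figure D5:**
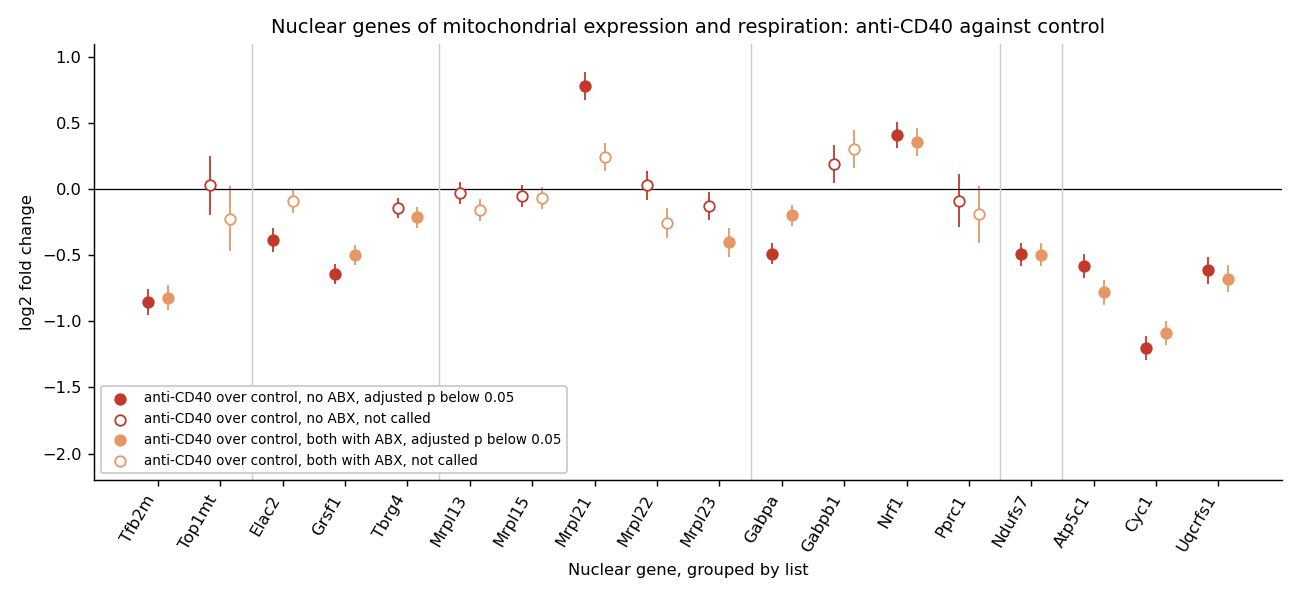
log2 fold change, anti-CD40 over control, of the 18 measured nuclear genes of the mitochondrial lists, with standard error (bars), without ABX (red) and with ABX (orange); filled points have an adjusted p below 0.05 and vertical lines part the lists. Tfb2m, Grsf1, Ndufs7, Atp5c1, Cyc1 and Uqcrfs1 lie below 0 in both settings, and Nrf1 lies above it.

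Markers of cell types changed as well, in directions that differed between types, and their part in the mitochondrial results was not tested. Of 5 measured hepatocyte markers 4 were lower and 1 higher in anti-CD40 mice in both settings, with Cps1, the first enzyme of the urea cycle and itself a mitochondrial protein, at -2.30 without ABX. Summed over those markers the level was 71820 to 103600 CPM in anti-CD40 and 221000 to 243200 CPM in control mice without ABX, and 105700 to 138600 CPM in anti-CD40 and 234400 to 313000 CPM in control mice with ABX. Of 4 measured macrophage markers 2 were higher and 1 lower without ABX and 3 higher and 1 lower with ABX, with summed levels of 283.2 to 1103 CPM in anti-CD40 and 116 to 333.1 CPM in control mice without ABX, and 306.5 to 913.5 CPM in anti-CD40 and 112.4 to 177.1 CPM in control mice with ABX. Both measured T cell markers were higher in both settings and stayed below 7 CPM in sum, and of 4 measured endothelial markers 2 were lower without ABX and 3 with ABX. Of 2 measured genes each, B cell markers had 0 called without ABX and 1 higher with ABX, stellate markers 0 without ABX and 2 lower with ABX, and cholangiocyte markers 1 higher and 1 lower without ABX and 1 higher with ABX.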

How the data were processed

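The deposited file of each mouse holds fragment counts as whole numbers, one value per row. The authors made them, per the file headers, with featureCounts 1.5.0-p2 from paired reads at exons of a human annotation. No strand option was set, nor one for fragments mapping to several places or overlapping several rows. HISAT2 2.1.0, Trimmomatic 0.38 and the mm10 build come from the submitters' processing notes. The human identifiers were ignored, and rows on MT were intersected with mouse genes (GENCODE M21, mm10). Library totals are 5053014 to 7618736 counts, and the mice are individual animals.

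The deposited counts of the rows passing edgeR's expression filter (5432) were fitted with edgeR 4.0.16 (R 4.3.3; robust quasi-likelihood, Benjamini-Hochberg over all rows, threshold 0.05), with TMM scaling and again with the mitochondrial total as library size. Errors after ± are standard errors for log2 fold changes and SD for levels. Nuclear genes were summed over rows lying over that gene alone by at least 50 bp. The share of counts was only described. The fits were tested on simulated data. Shared sequence was counted in stretches of 50 bases of annotated transcripts, and copies were aligned with Biopython 1.88. Values per mouse are given for rows with at least 1% of mitochondrial counts and for 3 smaller rows called relative to the mitochondrial total, picked after their values were seen; the other rows are given by fold changes, counts or ranges, and of each gene list, up to 4 genes by smallest p are named. The rows and lists were chosen with earlier results of these data known. Alternatives were other scalings, DESeq2 1.42.0, no filter, plate column as a term and leaving out each mouse.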

Additional observations from a re-analysis of the deposited data

Results flagged for a closer look

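A mouse far from the other 4 of its group was looked for in 124 groups of 5, and 9 were found; chance alone marks about 1 in 20 groups. Mouse 8, a control without ABX, had the lowest mitochondrial share of its group, 22.4% of all counts. The other 8 are shares of the mitochondrial counts. In anti-CD40 mice without ABX, mouse 18 had the highest share on mt-Nd1 at 3230 to 3304 (0.368%), and mouse 17 the highest on mt-Co2 to mt-Atp6 at 7586 to 8269 (0.268%) and on mt-Nd5 at 12207 to 12265 (0.0209%). In control mice without ABX, mouse 9 was highest on mt-Co1 at 5657 to 5729 (0.501%) and mouse 7 on 7586 to 8269 (0.238%). In anti-CD40 mice with ABX, mouse 11 was highest on mt-Nd5 at 12266 to 12336 (0.253%). In control mice with ABX, mouse 4 was highest on mt-Nd4l at 9991 to 10058 (0.0015%) and mouse 1 on the control-region row at 15956 to 16023 (0.109%).

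The anti-CD40 effect of 3 rows differed between mice with ABX and mice without, by the test of that difference. On the TMM scale these were mt-Nd1 at 3230 to 3304 (log2 difference -0.607) and mt-Cytb to past mt-Tp at 14747 to 15887 (-0.563). Relative to the mitochondrial total it was mt-Nd5 at 12207 to 12265 (0.533). With plate column as a term these differences rest on 1 anti-CD40 mouse without ABX, so no call was read from that fit.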

How the results depend on the processing

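On the TMM scale, the counts of rows called in either direction in the 2 anti-CD40 comparisons stayed within 1.5 times under every alternative run, but on totals without the haptoglobin row lower calls fell to 10 of 24 without ABX and 15 of 30 with ABX; leaving out 1 mouse gave 22 to 26 without ABX and 28 to 31 with ABX. For ABX in control mice (6 rows) library totals, totals without the haptoglobin row and plate column as a term each gave 3, no filter gave 12, and leaving out 1 mouse gave 3 to 6. For ABX in anti-CD40 mice (2 rows) library totals gave 4, totals without the haptoglobin row 5 and no filter 5, and leaving out 1 mouse 1 to 2. For the difference of anti-CD40 effects (2 rows) totals without the haptoglobin row gave 4, no filter 8 and DESeq2 7, and leaving out 1 mouse 0 to 6. Relative to the mitochondrial total, plate column as a term gave 8 rows (anti-CD40 with ABX) and 1 (ABX in controls). In the comparisons with anti-CD40 mice without ABX, fits with plate column rest on 1 such mouse, so their calls are not counted. For the difference of anti-CD40 effects on this scale no filter gave 0, and the mitochondrial total without its largest row gave 2. Leaving out 1 mouse gave 14 to 21 (anti-CD40 without ABX), 18 to 22 (with ABX), 0 to 1 (ABX in controls), 1 to 4 (ABX in anti-CD40 mice) and 0 to 2 (difference). The difference in mitochondrial share was -6.076 points within plate column and 1.252 without the haptoglobin row, or -0.038 with mouse 8 also left out (no ABX), and -4.29 without that row and -11.599 without the 10 largest nuclear rows (ABX); leaving out 1 mouse gave -5.286 to -3.107, -9.536 to -8.151, 2.103 to 4.299 (ABX in controls), -2.117 to -0.873 (ABX in anti-CD40 mice) and -5.781 to -3.586 (difference). On totals without the haptoglobin row, chosen after seeing the data, log2 fold changes turned positive without ABX at 4470 to 5511 (0.082), 5761 to 5826 (0.13), 5826 to 5891 (0.25), 5904 to 7445 (0.294), 10760 to 12137 (0.258) and 14747 to 15887 (0.237), and with ABX at 5761 to 5826 (0.049), 5826 to 5891 (0.057) and 5904 to 7445 (0.158). The cause of the other changes was not tested. No paired analysis was possible because the mouse numbers are not shared between groups. Depth limits the 11 rows inside the chromosome 1 copy, which hold 265 to 47682 counts each.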
